A study of Arabidopsis thaliana with 42 samples.

Results

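CC-type glutaredoxins are small plant proteins of the glutaredoxin family, also called ROXY proteins, and 10 of their genes were followed among the 37336 loci counted in Arabidopsis thaliana. The 10 were chosen by locus: a tandem cluster of 5 on chromosome 4 (AT4G15660, AT4G15670, AT4G15680, AT4G15690 and AT4G15700) and AT1G06830, AT2G47880, AT3G62930, AT5G18600 and AT1G03020. RNA sequencing counts came from 42 libraries in a study of NLP7, a member of the NIN-like protein (NLP) transcription factors, as a sensor of nitrate. Of these, 18 were from whole 7-day-old seedlings. Their genotypes were wild type (Col-0), nlp2,4,5,6,7,8,9, called the septuple mutant here, and chl1-5, with 3 libraries for each genotype and treatment. All seedlings, controls included, grew on 2.5 mM ammonium succinate and then spent 20 min in KCl or in KNO3, each at 10 mM, which were taken to be the K and N of the sample names. The chl1-5 mutant lacks a working NRT1.1 nitrate transporter, and its growth is described in a separate entry from that of wild type. The other 24 libraries were from mesophyll protoplasts, wall-less leaf cells, of soil-grown wild-type Col-0 plants 3 to 4 weeks old. By their labels, 2 libraries each expressed 1 of NLP1 to NLP9 transiently, and 3 control groups of 2 served NLP4 and 6, NLP7, and NLP1, 2, 3, 5, 8 and 9. Nothing in the labels says that replicates were separate cultures, so p-values measure the spread between these samples, which may be technical.

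Glutaredoxins use glutathione to act on thiol groups of other proteins. The CC type is found in land plants and is named for paired cysteines at its active site, and several members bind TGA transcription factors and the TOPLESS corepressors. In Arabidopsis the chromosome 4 genes, known as GRXS3, GRXS4, GRXS5, GRXS7 and GRXS8, have been linked to nitrate and to primary root growth. AT1G06830 and AT2G47880 are known as CEPD1 and CEPD2, which travel in the phloem from shoot to root and report nitrogen demand to the nitrate uptake system.

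The coding sequence around the active site shows what the 10 genes share. Each line gives coding bases 61 to 120, 5′ to 3′ on the coding strand, from the RefSeq assembly TAIR10.1, and capitals mark the 4 codons of the active site.
AT4G15660: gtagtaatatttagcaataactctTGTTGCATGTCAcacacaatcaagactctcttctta
AT4G15670: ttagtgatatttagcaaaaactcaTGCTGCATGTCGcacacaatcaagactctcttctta
AT4G15680: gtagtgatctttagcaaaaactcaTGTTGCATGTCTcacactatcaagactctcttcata
AT4G15690: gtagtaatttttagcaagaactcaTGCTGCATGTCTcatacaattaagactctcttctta
AT4G15700: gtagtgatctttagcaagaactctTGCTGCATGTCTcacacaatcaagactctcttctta
AT5G18600: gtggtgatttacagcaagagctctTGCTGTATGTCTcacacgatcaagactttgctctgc
AT3G62930: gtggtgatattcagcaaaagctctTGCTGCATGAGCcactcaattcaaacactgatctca
AT1G03020: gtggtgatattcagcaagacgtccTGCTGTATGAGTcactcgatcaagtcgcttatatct
AT1G06830: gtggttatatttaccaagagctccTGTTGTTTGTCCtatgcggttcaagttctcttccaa
AT2G47880: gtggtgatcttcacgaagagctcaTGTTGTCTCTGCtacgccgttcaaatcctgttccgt
All 10 begin the site with a pair of cysteine codons. AT2G47880 ends it with a cysteine codon, and the other 9 end it with a serine codon.

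Every member has 1 exon. The coding sequence is 309 bases long in 9 of them and 300 bases in AT1G06830. The cluster runs from AT4G15660 (chr4:8925571-8926510, plus strand) to AT4G15700 (chr4:8937358-8938124, plus strand) over 12554 bp, with gaps of 1803 to 2520 bp and no other annotated gene between them. AT1G06830 lies at chr1:2097106-2097655 on the plus strand and AT2G47880 at chr2:19605030-19605704 on the plus strand. AT3G62930 lies at chr3:23261442-23261927, AT5G18600 at chr5:6183166-6184038 and AT1G03020 at chr1:697919-698591, all on the minus strand. AT2G47880 overlaps AT2G47885, annotated on the other strand, and as the strand used in counting is not known from the sources at hand, reads of the pair cannot be told apart.

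Coding sequences within the cluster were 88.3 to 93.2% identical to each other. Outside it, AT1G06830 and AT2G47880 were the closest pair at 73.1%. The longest stretch that copies share exactly is 71 bases, in AT4G15660 (chr4:8926120-8926190) and AT4G15700 (chr4:8937737-8937807), coding bases 193 to 263.
Shared stretch: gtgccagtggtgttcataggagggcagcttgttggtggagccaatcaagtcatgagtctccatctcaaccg
A 50-base read from that stretch fits both genes. Over whole transcripts, 0.6% (AT4G15680) to 4.7% (AT4G15700) of 50-base windows occurred elsewhere in the genome, and none did for the 5 genes outside the cluster. At 100 bases every window of the 10 genes occurred once. No read length is stated in the labels, so values of single copies are uncertain and are given beside the sum of the 5. Alignments that were not unique were counted apart from genes, and the sum does not recover them.

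Seedling libraries held 18.3 to 59.7 M (megacounts) on genes and protoplast libraries 5.6 to 27.7 M. Levels are counts per megacount (CPM) scaled by TMM, and a count of 0 in 1 seedling library allows up to 0.0502 to 0.164 CPM, for counting error only. Among the 18 protoplast libraries that received an NLP, 4 had another NLP than the labelled one as their highest. The library labelled NLP4 replicate 1 held NLP1, NLP5 replicate 2 held NLP8, NLP6 replicate 1 held NLP4, and NLP8 replicate 2 held NLP5. Groups were kept as labelled. Markers of mesophyll, phloem, guard cell, epidermis and root were all detected in seedlings. In protoplasts all 6 mesophyll markers were detected, at a summed 547 to 2260 CPM. In seedlings, which were normalised separately, they summed to 24000 to 84300 CPM. Epidermis markers summed to 14.3 to 144 CPM in protoplasts, guard cell to 1.19 to 5.51 CPM and root to 0.324 to 4.59 CPM. The 6 phloem markers summed to 6.2 to 94.8 CPM there, mostly HA3, a proton pump with a median of 11.8 CPM, and SUC2, a phloem companion cell transporter, had a median of 0.613 CPM.

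Per kilobase of transcript, AT1G06830 had the highest level in K-treated wild-type seedlings, at 8.97 ± 4.84 CPM per kb (SD, n = 3). AT5G18600 followed at 4.46 ± 2.39 CPM per kb and AT3G62930 at 2.11 ± 1.42 CPM per kb. AT2G47880, AT4G15680, AT4G15690 and AT4G15700 lay between 0.699 and 1.06 CPM per kb. Neighbours in this order from AT1G06830 to AT4G15700 differed by less than their SDs together. AT4G15660 stood at 0.0619 ± 0.107 CPM per kb, and AT4G15670 and AT1G03020 had no counts. After N, AT3G62930 reached 13.7 ± 4.36, AT5G18600 10.8 ± 3.07 and AT1G06830 10.2 ± 2.52 CPM per kb, which again overlapped within their SDs.

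**Figure D1:**
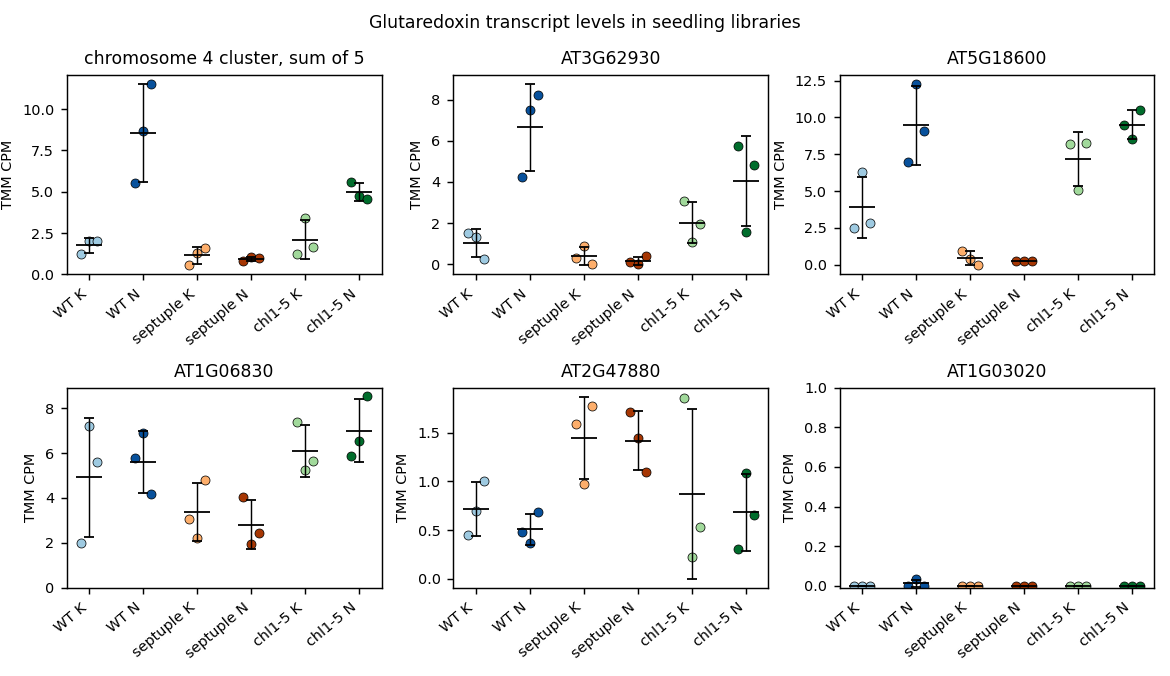
TMM-scaled CPM of the summed chromosome 4 cluster and of the 5 other members in the 18 seedling libraries, with points for libraries and black bars for mean ± SD (n = 3). The cluster, AT3G62930 and AT5G18600 are higher in N than in K in wild type and near the bottom of the axis in the septuple mutant, and AT1G03020 has 1 count in all.

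The summed chromosome 4 cluster rose after nitrate in wild type. Its levels in K were 1.22, 2.04 and 2.01 CPM, and in N 5.55, 8.67 and 11.5 CPM. The groups did not overlap, and every N library was above every K library. The log2 fold change was 2.29 ± 0.54 (SE), with an adjusted p of 0.0409 by edgeR's quasi-likelihood test with Benjamini-Hochberg adjustment over all genes. With the 5 copies counted as 1 locus, 0.735% of all rows were called in that comparison. The call rests on all 3 K libraries and 2 of the N libraries. The adjusted p was 0.243 without K replicate 1, 0.0708 without K replicate 2, 0.116 without K replicate 3, 0.163 without N replicate 2 and 0.178 without N replicate 3 (edgeR), and the log2 fold change stayed between 2.02 and 2.53 over the 6 omissions. In N replicate 1, 58.1% of alignments were not unique, more than in any other seedling library, and without it the adjusted p was 0.0402. Summed mesophyll markers also lay without overlap between these groups, at 30100 to 44500 CPM in K and 55700 to 78700 CPM in N. Epidermis markers were at 967 to 1630 and 1620 to 2360 CPM, phloem at 201 to 328 and 255 to 385 CPM, guard cell at 6.18 to 13.5 and 5.38 to 11.3 CPM, and root at 2350 to 3960 and 2810 to 3840 CPM. Their part in the result was not tested.

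Taken as single loci, 0 of the 9 members tested were called for nitrate in wild type, against 0.725% of all 21229 genes by edgeR. At an unadjusted p under 0.05 there were 4 of 9 members, against 11.6% of all genes. DESeq2 gave an adjusted p to 1 member and called 0. Their median log2 fold change was 1.85, against -0.07 over all genes. AT1G03020 was not tested, with 1 count over 18 libraries.

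Within the cluster, AT4G15690 held 35.4% of the 1741 counts pooled over all seedlings, AT4G15700 34.5% and AT4G15680 24.2%. Single libraries varied widely, from 2.94 to 100.0% for AT4G15690 and from 0 to 76.8% for AT4G15700, so the pooled shares give no order between these copies. AT4G15690 measured 0.391, 0.763 and 0.436 CPM in wild-type K and 2.66, 2.73 and 3.61 CPM in N. AT4G15700 measured 0.154, 1.02 and 0.436 CPM in K and 2.06, 2.33 and 4.09 CPM in N. Both had groups that did not overlap, with log2 fold changes of 2.50 ± 1.06 and 2.41 ± 1.27 that were not called. AT4G15680 measured 0.671, 0.254 and 0.96 CPM in K and 0.595, 2.82 and 3.41 CPM in N, so that N replicate 1 lay among the K libraries. AT4G15670 had no count in any K library and 6, 12 and 10 counts in N, which is at least 13.5-fold higher against 3 counts over the K group. AT4G15660 had counts in 1 K library and 2 N libraries, at 0.399 CPM or less.

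**Figure D2:**
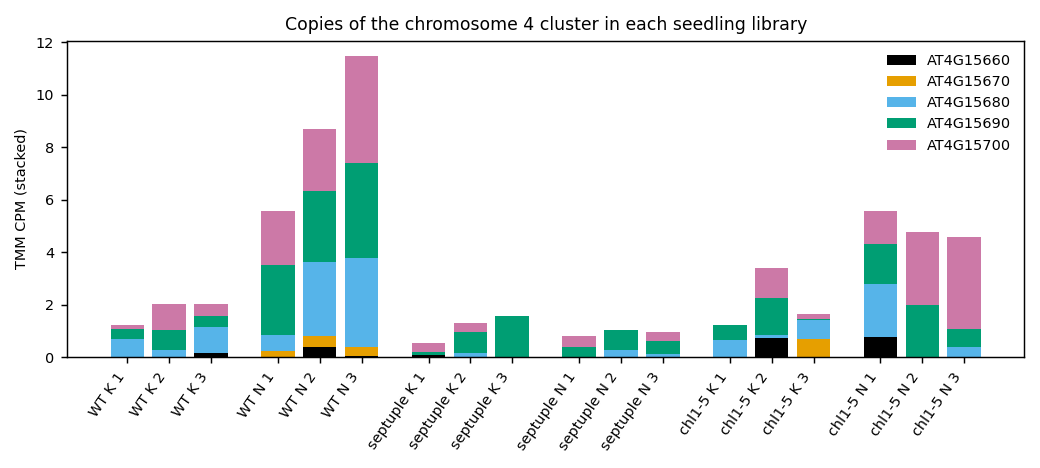
Stacked bars of TMM-scaled CPM for the 5 copies of the chromosome 4 cluster in each of the 18 seedling libraries. AT4G15680, AT4G15690 and AT4G15700 make up most of the bars in wild-type N, whose sums are 5.55, 8.67 and 11.5 CPM.

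Outside the cluster, AT3G62930 measured 1.54, 1.30 and 0.24 CPM in wild-type K and 4.24, 7.51 and 8.22 CPM in N. Its groups did not overlap, and its log2 fold change was 2.69 ± 0.93 with an adjusted p of 0.218 by edgeR. Without the filter on low counts the adjusted p was 0.0388 (edgeR). AT5G18600 measured 2.53, 6.30 and 2.86 CPM in K and 6.98, 12.3 and 9.10 CPM in N, again without overlap, with a log2 fold change of 1.29 ± 0.56 that was not called.

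The pair of phloem-mobile signals gave other values. AT1G06830 (CEPD1) measured 2.00, 7.19 and 5.60 CPM in wild-type K and 5.79, 6.91 and 4.16 CPM in N. AT2G47880 (CEPD2) measured 0.447, 0.70 and 1.00 CPM in K and 0.476, 0.366 and 0.682 CPM in N. Both had overlapping groups, with log2 fold changes of 0.19 ± 0.46 and -0.49 ± 0.97.

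In the septuple mutant, nitrate was followed by no called change, for 0 of 9 members and for 0.0% of all genes by edgeR. DESeq2 called 0 of 10, and 0 members passed an unadjusted p of 0.05, against 2.06% of all genes. The summed cluster measured 0.549, 1.30 and 1.58 CPM in K and 0.823, 1.04 and 0.962 CPM in N. These groups overlapped, with a log2 fold change of -0.26 ± 0.54. AT3G62930 measured 0.301, 0.867 and 0 CPM in K and 0.108, 0 and 0.382 CPM in N.

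The difference between the septuple mutant and wild type in their nitrate responses was tested directly as an interaction. No member of 9 was called, against 0.278% of all genes by edgeR, and DESeq2 gave no member an adjusted p. At an unadjusted p under 0.05 there were 3 members, against 11.0% of all genes. The interaction of the summed cluster was -2.56 ± 0.76 on the log2 scale, with an adjusted p of 0.168 (edgeR). That of AT3G62930 was -3.89 ± 1.34 with an adjusted p of 0.239, and 0.0424 without the filter on low counts (edgeR).

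Between the septuple mutant and wild type, members differed in N and in K. In N, AT5G18600 fell in the septuple mutant, to 0.26, 0.277 and 0.232 CPM against 6.98, 12.3 and 9.10 CPM in wild type. Its log2 fold change was -5.20 ± 0.68 with an adjusted p of 1.02e-05 (edgeR). AT3G62930 fell as well, by 5.21 ± 1.07 on the log2 scale with an adjusted p of 0.00164 (edgeR), and its highest mutant library, at 0.382 CPM, lay under its lowest wild-type library, at 4.24 CPM.

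These 2 of 9 members were called in N, both lower, where 10.8% of all genes were called and 6.78% were called lower. The members' median log2 fold change was -4.06, or -3.42 with groups at 0 counts set at their bound, against 0.04 over all genes. The summed cluster fell by 3.18 ± 0.57 on the log2 scale with an adjusted p of 0.000408 (edgeR), where 10.8% of rows were called with the copies as 1 locus. AT4G15670 had no count in the mutant in N, at least 12.0-fold lower than wild type against 3 counts over the group, and AT4G15660 likewise at least 5.56-fold lower. AT4G15680, AT4G15690 and AT4G15700 had log2 fold changes of -4.06 ± 1.60, -2.45 ± 1.05 and -3.42 ± 1.32 that were not called. DESeq2 called these 3 too, for 5 members and 14.4% of genes, and so did edgeR fitted on the 2 groups alone, for 5 members and 18.2% of genes. AT1G06830 and AT2G47880 were at -1.0 ± 0.46 and 1.48 ± 0.98, neither called.

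In K, AT5G18600 was the 1 member of 9 called, where 2.25% of all genes were called and 0.838% were called lower. It measured 0.957, 0.39 and 0 CPM in the mutant against 2.53, 6.30 and 2.86 CPM in wild type, with no overlap. It fell by 2.98 ± 0.61 on the log2 scale with an adjusted p of 0.00524, and of 0.173 when the 2 groups were fitted alone (both edgeR). The summed cluster was at -0.63 ± 0.53 in K and was not called. In whole seedlings, fewer cells of a type and less RNA per cell cannot be told apart. In N, summed markers in the mutant were 24000 to 27800 CPM for mesophyll, 1090 to 1450 CPM for epidermis and 4320 to 4960 CPM for root, none of which overlaps wild-type N, while phloem at 273 to 289 CPM and guard cell at 7.34 to 8.73 CPM do. In K, phloem at 335 to 433 CPM in the mutant did not overlap wild type, while mesophyll at 29200 to 42600 CPM, epidermis at 1300 to 1970 CPM, guard cell at 6.44 to 15.7 CPM and root at 3660 to 5880 CPM did. The part of these markers in the results was not tested.

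**Figure D3:**
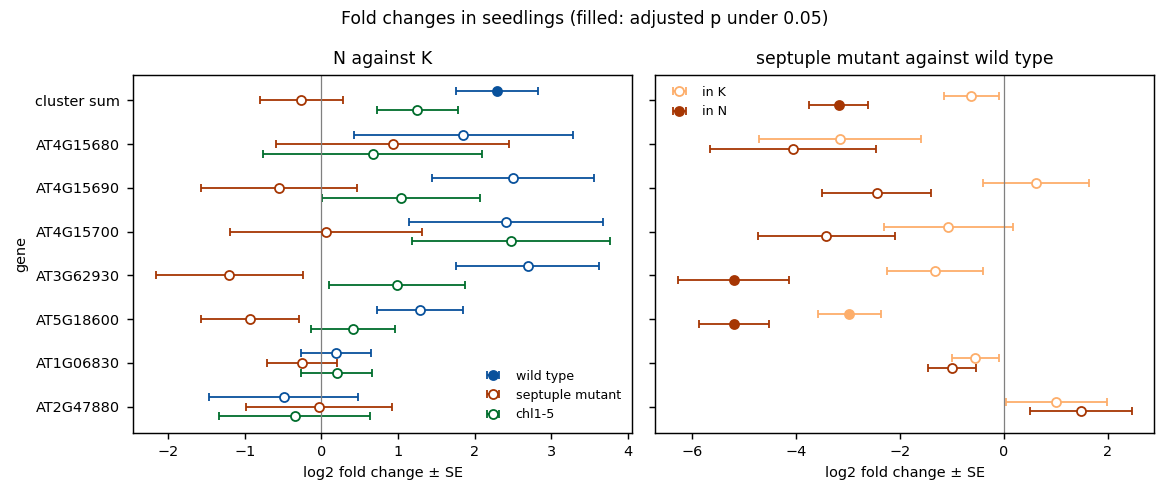
Log2 fold changes ± SE of the summed cluster and 7 members, for N against K in each genotype (left) and for the septuple mutant against wild type in each treatment (right), with filled points for an adjusted p under 0.05. The filled points are the cluster in wild-type nitrate and in N, AT3G62930 in N, and AT5G18600 in K and in N.

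In chl1-5 seedlings 0 of 9 members were called for nitrate, against 0.122% of all genes by edgeR. DESeq2 called 0 of the 9 with an adjusted p, and 0 members passed an unadjusted p of 0.05, against 6.45% of genes. The summed cluster measured 1.21, 3.42 and 1.65 CPM in K and 5.58, 4.76 and 4.58 CPM in N. These groups did not overlap, and the log2 fold change of 1.25 ± 0.53 had an adjusted p of 0.73 (edgeR). AT4G15700 measured 0, 1.15 and 0.194 CPM in K and 1.28, 2.76 and 3.52 CPM in N. AT5G18600 measured 8.21, 5.06 and 8.26 CPM in K and 9.47, 8.57 and 10.5 CPM in N, without overlap and with a log2 fold change of 0.41 ± 0.55.

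Against wild type, chl1-5 had 0 of 9 members called in K, where 5.48% of genes were called, and 0 of 9 in N, where 0.0612% were. At an unadjusted p under 0.05 there was 1 member in each, against 25.1% and 11.9% of genes, and DESeq2 called 0 of 8 in both. That member was AT4G15670, which in K rests on 14 counts in 1 chl1-5 library against none in wild type. In N it had no count in chl1-5 against 6, 12 and 10 counts in wild type. That is at least 9.0-fold lower against 3 counts over the chl1-5 group. In K, summed mesophyll markers were 62600 to 84300 CPM in chl1-5 and 30100 to 44500 CPM in wild type. Epidermis markers were at 1840 to 2280 and 967 to 1630 CPM, while phloem, guard cell and root overlapped. In N all these sums overlapped. Their part was not tested, and as growth of chl1-5 is described separately, genotype and growth cannot be told apart. The interactions of chl1-5 with wild type and of the septuple mutant with chl1-5 also gave 0 of 9, against 0.00942% and 0.033% of all genes by edgeR, and DESeq2 called 0 of 9 in both. At an unadjusted p under 0.05 there were 1 and 0 members, against 8.05% and 4.21% of genes. The 1 was again AT4G15670.

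In protoplasts the 10 members were close to the detection limit, and 2 of them, AT3G62930 and AT5G18600, passed the filter on low counts. Both passed through the NLP libraries in which they are high, so their differences from controls at or near 0 counts are given as a description. The summed cluster held 0 to 9 counts per library over the 24 libraries. AT1G06830 held 0 to 6 counts, and AT2G47880 held 1 count in all. Against these, whole seedlings held 56 to 257 counts of AT1G06830 per library, from other tissues and at another depth. Seedling libraries held 18.3 to 59.7 M and protoplast libraries 5.6 to 27.7 M. Group means of AT1G06830 were 2.8 to 6.99 CPM in seedlings and 0 to 0.31 CPM in protoplasts, each normalised separately.

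AT3G62930 was at 0 counts in the controls for NLP4 and 6 and for NLP1, 2, 3, 5, 8 and 9, and at 2 and 10 counts in those for NLP7. In unscaled CPM it measured 1.62 and 1.41 with NLP2 and 0.418 and 0.50 with NLP9. Summed over the group, NLP2 was at least 9.42-fold and NLP9 at least 2.85-fold higher than 3 counts in their control. With NLP1 it measured 0 and 0.0971 CPM and with NLP3 0 and 0.0649 CPM. With NLP7 it had 1 count in each library, a ratio of 0.253 to its control (exact 95% interval 0.0275 to 1.14, counting error only).

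The 4 groups that include a library with another NLP were uneven. The library labelled NLP4 replicate 1, which held NLP1, measured 0 CPM of AT3G62930, and replicate 2 measured 1.65 CPM. The library labelled NLP6 replicate 1, which held NLP4, measured 1.95 CPM, and replicate 2 measured 0.126 CPM. NLP5 replicate 1 measured 2.42 CPM and the library labelled NLP5 replicate 2, which held NLP8, 0.408 CPM. NLP8 replicate 1 measured 0.606 CPM and the library labelled NLP8 replicate 2, which held NLP5, 1.26 CPM.

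With groups as labelled, 0 of 2 tested members were called in any of the 9 comparisons by edgeR. The shares of all genes called were 1.58% for NLP1, 14.3% for NLP2, 2.79% for NLP3, 3.46% for NLP4, 10.6% for NLP5, 4.05% for NLP6, 9.63% for NLP7, 10.9% for NLP8 and 19.3% for NLP9. The adjusted p of AT3G62930 was 0.0771 for NLP2 and 0.097 for NLP5 (edgeR), and DESeq2 called it in both, and in no other of the 9. DESeq2 gave neither member an adjusted p for NLP1, NLP3 and NLP4. A joint test of whether the 9 responses differ called 16.7% of genes and neither member, with an adjusted p of 0.0758 for AT3G62930 (edgeR), which DESeq2 called. An unadjusted p under 0.05 was reached by 1 member for NLP1, NLP4, NLP5, NLP6 and NLP8, by 2 for NLP2 and by 0 for NLP3, NLP7 and NLP9, while 17.5 to 32.2% of all genes reached it in these comparisons.

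Without the 4 libraries, edgeR called AT3G62930 for 5 NLPs, each against controls with 0 counts of it. The adjusted p was 0.000672 for NLP2, 0.00139 for NLP4, 0.000337 for NLP5, 0.0255 for NLP8 and 0.0202 for NLP9 (edgeR). In these fits 31.0%, 24.2%, 18.2%, 24.8% and 33.1% of all genes were called. The joint test then called AT3G62930 with an adjusted p of 1.25e-05 (edgeR), beside 43.6% of genes. NLP4, NLP5, NLP6 and NLP8 were then represented by 1 library each, assumed to vary like the others.

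In the authors' deposited table, AT3G62930 had adjusted p-values of 0.000648 for NLP2 and 0.0218 for NLP9, from a tool the table does not name. For NLP4, NLP5 and NLP8 these were 0.00996, 0.000323 and 0.0222. For NLP6 it had no adjusted p and a log2 fold change of 1.21, although the labelled libraries held 12 counts against 0. AT4G15660 had a log2 fold change of 0.95 for NLP8, although the labelled libraries and their control held 0 counts. It had 0.0 for NLP5, where the labelled libraries held 1 count, and AT4G15680 had 0.0 for NLP4, where they held 2. The table names no samples, so the libraries behind these values may be grouped otherwise than labelled here. The authors' values for NLP4, NLP5, NLP6 and NLP8 may thus compare other libraries than those compared here. In the authors' deposited table for wild-type nitrate, 2 of the 10 members had an adjusted p and neither was under 0.05.

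AT5G18600 had 0 counts in all 6 control libraries. It measured 1.00 and 0.0971 CPM with NLP1 and 0.866 and 0.325 CPM with NLP2, and summed over the group NLP2 was at least 3.70-fold higher than 3 counts in its control. The libraries of NLP1 differed from each other by more than those of NLP2. By edgeR it was not called for any NLP, with an adjusted p of 0.0939 for NLP2. In the authors' deposited table its adjusted p for NLP2 was 0.0317, none of the other 4 NLPs with a value was under 0.05, and 4 had no value.

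**Figure D4:**
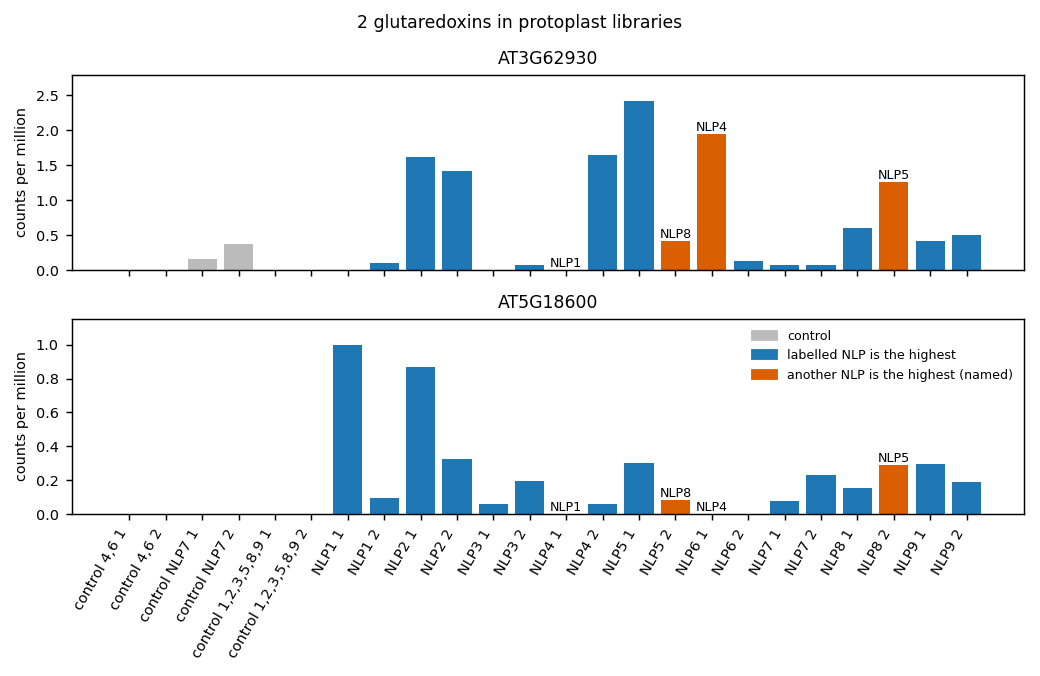
Unscaled CPM of AT3G62930 and AT5G18600 in the 24 protoplast libraries, with controls in grey, libraries whose highest NLP is the labelled one in blue and the 4 others in orange with the NLP they hold. AT3G62930 is at 1.62 and 1.41 CPM with NLP2, and AT5G18600 is at 0 in every control.

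Promoters were searched on both strands, from 250 bases before to 50 bases after the annotated start, for GACNCTT and AAGAG, which are both parts of the nitrate-responsive element that NLPs bind, for TGACG, the core bound by TGA factors, and for AGATACG, bound by type-B response regulators. GACNCTT was found in 4 of the 10 members, all in the cluster, and in 8.6% of 27443 promoters. No member outside the cluster had it. The cluster genes are tandem copies, and similar sequence surrounds the reverse-strand match AAGAGTC in AT4G15670, AT4G15680 and AT4G15700. Matches in the cluster are therefore not independent of each other, and enrichment over all promoters was not tested. AAGAG was found in 7 members and in 61.4% of promoters, and overlaps the reverse strand of GACNCTT wherever that reads AAGAGTC. The motifs TGACG and AGATACG were in none of the 10 windows and in 23.1% and 2.0% of promoters. The 4 promoters with GACNCTT are shown over the 250 bases before the start, on the plus strand of TAIR10.1, with matches in capitals.
AT4G15670, chr4:8928781-8929030: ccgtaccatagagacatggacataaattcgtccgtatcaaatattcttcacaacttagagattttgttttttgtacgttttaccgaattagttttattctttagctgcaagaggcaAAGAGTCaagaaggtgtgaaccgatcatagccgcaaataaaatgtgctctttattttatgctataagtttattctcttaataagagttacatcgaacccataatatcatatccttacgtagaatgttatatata
AT4G15680, chr4:8931367-8931616: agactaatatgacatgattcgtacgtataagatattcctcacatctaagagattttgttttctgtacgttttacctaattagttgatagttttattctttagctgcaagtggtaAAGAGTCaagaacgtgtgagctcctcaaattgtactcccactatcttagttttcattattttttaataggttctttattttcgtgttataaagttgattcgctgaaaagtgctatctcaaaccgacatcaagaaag
AT4G15690, chr4:8934046-8934295: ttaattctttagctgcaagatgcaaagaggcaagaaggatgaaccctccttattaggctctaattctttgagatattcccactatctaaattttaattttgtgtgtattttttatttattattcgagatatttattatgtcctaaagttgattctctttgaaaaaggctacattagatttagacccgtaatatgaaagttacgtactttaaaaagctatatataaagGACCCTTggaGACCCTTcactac
AT4G15700, chr4:8937108-8937357: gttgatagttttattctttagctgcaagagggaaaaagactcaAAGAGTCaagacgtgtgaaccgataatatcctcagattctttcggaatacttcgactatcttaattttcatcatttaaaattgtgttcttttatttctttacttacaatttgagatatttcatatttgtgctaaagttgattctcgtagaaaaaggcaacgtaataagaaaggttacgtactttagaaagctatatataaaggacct
A match in these windows describes letters and not binding.

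Of 11 other CC-type glutaredoxins, 9 were tested in seedlings. By edgeR 0 were called in any of the 10 seedling comparisons, beside 0.0 to 10.8% of all genes. In each, 0 to 2 had an unadjusted p under 0.05, beside 2.06 to 25.1% of all genes, and DESeq2 called 0. In protoplasts 3 of the 11 were tested, GRX480, GRXS13 and AT4G33040, with group means of 7.87 to 47.4, 5.56 to 14.3 and 0.512 to 5.35 CPM. None was called for any NLP by edgeR or DESeq2, beside 1.58 to 19.3% of all genes by edgeR. At an unadjusted p under 0.05 there were 0 to 2, beside 17.5 to 32.2% of all genes. The joint test of the 9 responses called 1, AT4G33040, by edgeR, beside 16.7% of all genes, and 0 by DESeq2. Among the 12 genes of the CEP pathway, 8 were tested in seedlings. Of all genes, 0.725% were called in wild-type nitrate. In wild-type nitrate 2 rose: NRT2.1, the high-affinity nitrate transporter that CEPD signals raise, by 1.82 ± 0.34 on the log2 scale with an adjusted p of 0.00462, and its partner WR3 (NRT3.1) by 2.04 ± 0.24 with 9.06e-06 (both edgeR). In the septuple mutant against wild type in N, 3 of 8 fell and 1 rose, where 10.8% of all genes were called and 6.78% were called lower. AT4G32950, known as the phosphatase CEPH that acts on NRT2.1, was at -6.63 ± 0.48 on the log2 scale and NRT2.1 at -6.14 ± 0.42. AT1G72180, known as the receptor CEPR2, was at 0.94 ± 0.25. In protoplasts 5 of the 12 were tested, 0 to 2 rose per NLP and 1 fell with NLP6, beside 1.58 to 19.3% of all genes called.

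Of 10 cytokinin genes, 1 rose in wild-type nitrate, IPT3, a cytokinin synthesis enzyme, by 2.82 ± 0.30 on the log2 scale. There 0.725% of all genes were called. In the septuple mutant in N 3 fell, IPT3, ARR7 and ARR9, the latter pair being type-A response regulators. There 6.78% of all genes were called lower. In protoplasts 0 to 1 of the 10 rose per NLP and 1 fell with NLP5, NLP8 and NLP9, beside 1.58 to 19.3% of all genes called. Of 15 TGA factors and TOPLESS corepressors, the binding partners of the family, 0 were called in wild-type nitrate by edgeR, with 1 at an unadjusted p under 0.05 and 1 called by DESeq2. In the septuple mutant in N TGA3 was higher, at 0.89 ± 0.23, and TGA1 lower, at -1.71 ± 0.29. Of 10 CPYC and CGFS glutaredoxins, the other classes of the family, 1 fell in N, CXIP1, at -0.78 ± 0.25. The counts of 2 of 15 and 1 of 10 are near the 10.8% of all genes called in N. Of 4 glutathione genes, 0 were called by edgeR in that comparison or in wild-type nitrate, with 0 and 1 at an unadjusted p under 0.05 and 0 and 1 called by DESeq2. In protoplasts GSH1, GSH2 and GR1, 3 of the 4, fell with NLP2, NLP5, NLP8 and NLP9, where 14.3%, 10.6%, 10.9% and 19.3% of all genes were called. Medians over the 4 were -1.01, -0.98, -0.98 and -1.16, against 0.02 to 0.03 over all genes. With NLP1 and NLP3 2 fell, with NLP4 and NLP7 1 and with NLP6 0 by edgeR, with 2 at an unadjusted p under 0.05 and 0 called by DESeq2. NLP1, 2, 3, 5, 8 and 9 share their control.

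Likeness of pattern was measured over the 18 seedling libraries as the root mean square difference of centred log2(CPM + 1), among genes with a mean of at least 5 CPM. Closest to the summed cluster were UGT73B2 at 0.37, SERAT2;1 at 0.38 and AO at 0.38. The members AT3G62930, at 0.58, and AT5G18600, at 0.89, were not picked for closeness, so the values are unlike. Closest to AT3G62930 were AT5G54660 at 0.40, AO at 0.42 and UPM1 at 0.43. Closest to AT5G18600 were BAT1 at 0.41, PAR1 at 0.45 and AT4G01870 at 0.47. AT1G06830 was closest to AT2G27730, AT2G36950 and NF-YC1, at 0.25, 0.25 and 0.26, and AT2G47880 to AT1G23000, AT1G25370 and AT1G07380, at 0.22, 0.25 and 0.25. AT1G06830 and AT2G47880 differed from each other by 0.72. Small values are also reached by genes that vary little, since the spread of AT2G47880 itself was 0.39. The spread was 0.87 for the summed cluster and 0.53 for AT1G06830. For AT5G18600 the spread was 1.32. Its 0.89 from the cluster was thus near the cluster's own spread but under that of AT5G18600. The measure also grows where one pattern varies more than the other, so it does not decide whether their shapes are alike. AT1G06830 and AT2G47880 were no closer to each other than either was to a gene without change.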

How the data were processed

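The authors deposited raw counts per locus as whole numbers, and tables of their own comparisons with log2 fold changes and adjusted p-values, per the file headers. The genome build TAIR10 and the tools TopHat2 2.1.1, HTSeq 0.6.1, featureCounts and FastQC 0.11.5 are named, per the submitters' processing notes, without their roles. Lines that name no gene were left out; reads with no gene came to 0.82 to 16.7% of assigned reads in seedlings and 0.84 to 20.99% in protoplasts. Counts were tested with edgeR 4.0.16 in R 4.3.3 (quasi-likelihood, TMM, filterByExpr; Benjamini-Hochberg over all genes, called under 0.05), with 18 seedling libraries and 21229 genes in 1 fit and 23 protoplast libraries and 19311 genes in another. The 2 control libraries for NLP1, 2, 3, 5, 8 and 9 were within sampling noise only once NLP genes were left out (chi-square 1.01 per gene, p = 0.101, without NLP genes and 1.07 with them, against 3.57 or more for other pairs) and were counted as 1 sample; that was decided on seeing the counts. SE is the fold change over the root of F. DESeq2 1.42.0 was an alternative. The test was checked on simulated counts, with changes set in 200 genes with a mean above 1 CPM. For wild-type nitrate it recovered 16.5% of 2-fold and 70.5% of 4-fold changes. For NLP2 in protoplasts it recovered 45.0% and 84.5%. A gene that was not called may therefore still have changed. Sequences are from RefSeq TAIR10.1; the count files hold no coordinates. The 10 members were named throughout, with list genes that passed the test and the 3 genes of most like pattern. Members and lists were chosen with earlier results of these data known.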

Additional observations from a re-analysis of the deposited data

How the results depend on the processing

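The number of members called moved from 0 to 1 in wild-type nitrate without the filter on low counts and with the 5 copies summed, and from 0 to 1 in the interaction of the septuple mutant and wild type without the filter. For the septuple mutant against wild type it moved from 1 to 0 in K with the 2 groups alone, and from 2 to 5 in N with DESeq2 and with the 2 groups alone. In protoplasts it moved from 0 to 1, always AT3G62930, for NLP2, NLP5 and the joint test with DESeq2, for NLP2, NLP4, NLP5, NLP6, NLP8, NLP9 and the joint test without the filter, for NLP2 and NLP5 with 24 libraries as labelled, and for NLP2, NLP4, NLP5, NLP8, NLP9 and the joint test without the 4 libraries whose highest NLP is another. Leaving out 1 library gave 0 to 1 for NLP4 and for the joint test, and 0 to 1 nitrate responses in which the summed cluster was called. The controls of NLP2, NLP4, NLP5, NLP6, NLP8 and NLP9 held 0 counts of AT3G62930, so its calls there are a description. Calls over all genes moved as well. For the septuple mutant against wild type in N they went from 10.8% to 14.4% with DESeq2 and to 18.2% with the 2 groups alone. Shares with the copies summed and without the 4 libraries are given above. For the other settings the shares are not given here, so these moves are not read as particular to the members. Their cause was not tested. Directions of called values held in every alternative. Same-numbered libraries did not deviate together (2 of 45 seedling pairs correlated above 0.1), and with a replicate block the cluster was called in 1 nitrate response, as without it, and the counts of members called were the same. DESeq2 gave no member an adjusted p for the interaction of the septuple mutant and wild type or for NLP1, NLP3 and NLP4. Low counts limit these genes: 8 of the 10 members did not pass the filter in protoplasts.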
